A study of Homo sapiens with 6 samples.

Results

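The BCL2 family of apoptosis regulators was examined as 10 listed genes, all of them measured, among 18404 genes on the arrays. The list holds the pro-survival genes BCL2, BCL2L1 and MCL1, the BH3-only death genes BCL2L11, HRK, BMF, PMAIP1 and BBC3, and the effector genes BAX and BAK1. Members were found by the symbol that the platform annotation gives to a probe set, and each was named by 1 probe set that carried no other symbol. The study compared H69M with H69, each represented by 3 arrays of total RNA from cultured cells. H69 is an established human small cell lung cancer line with neuroendocrine features. Both lines are labelled as small cell lung cancer; the labels name no treatment for either line and do not say how H69M was derived, whether it is a single clone, or whether the 3 arrays of a line came from separate cultures. The values are RMA expression values on the log2 scale, so a difference of 1 is a 2-fold difference.

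Proteins of the BCL2 family decide whether the outer mitochondrial membrane is opened during apoptosis. BCL2, BCL-XL (from BCL2L1) and MCL1 hold the effectors BAX and BAK1 in check, and BH3-only proteins such as BIM (from BCL2L11), PUMA (from BBC3) and NOXA (from PMAIP1) bind into the same groove and relieve that hold. Once BAX or BAK1 form pores, cytochrome c leaves the mitochondrion and the caspases are activated. Small cell lung cancer is known for abundant BCL2, which has made the family a drug target in this tumour.

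The 2 lines were separated by many genes, and the member values are read against that. The limma test, with an adjusted p threshold of 0.05 (Benjamini-Hochberg over all genes), was passed by 8140 genes (44.2%), with 21.0% of the measured genes higher in H69M and 23.2% lower. Over all genes the fold changes had a median of -0.041 on the log2 scale. Array medians lay between 6.43 and 6.48. Replicate 1 of H69M was closer to the other line, with a mean correlation across genes of 0.950 with the H69 arrays, against 0.939 for each of H69M replicates 2 and 3. Of 6 measured neuroendocrine markers, 4 were lower and 0 higher; their mean level ranged from 8.59 to 8.86 on the H69M arrays and from 9.31 to 9.36 on the H69 arrays. All 6 fibroblast and mesenchymal markers were higher, at a mean level of 9.59 to 10.1 in H69M and 5.11 to 5.25 in H69. Of the markers of other cell types, 4 of 5 for leukocytes and 3 of 3 for endothelial cells lay below the 25th percentile of gene levels. For squamous and basal cells it was 1 of 2. Mean levels were 4.06 to 4.16 in H69M and 4.24 to 4.37 in H69 for leukocytes. Of these 5 leukocyte markers, 3 were called lower and 0 higher. Among them were PTPRC (log2 fold change -0.35) and CD3E (-0.20), so genes below that percentile also passed the test. The squamous and basal markers averaged 5.87 to 6.11 in H69M and 5.91 to 6.08 in H69. These marker shifts run alongside every member difference given here, and their part in it was not tested; in bulk RNA, fewer cells of a type and less RNA per cell cannot be told apart.

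Of the 10 members, 5 were lower in H69M and 1 was higher, against 23.2% and 21.0% of all genes. BCL2 and BCL2L11 had the largest changes, with 38.1% and 38.4% of their H69 level left in H69M, and HRK, PMAIP1 and BMF fell by less. MCL1 rose slightly, while BCL2L1, BBC3, BAX and BAK1 did not pass the test. Within the list, the falls thus covered 1 of 3 pro-survival genes, 4 of 5 BH3-only genes and 0 of 2 effectors, against 23.2% of all genes. The BH3-only genes BID (0.12), BAD (-0.044) and BIK (0.020, log2 fold changes) are outside the list and did not pass. No test was made of these small groups. Changes of at least 2-fold were 2 of 10 lower and 0 higher, against 2.72% and 5.56% of all genes. H69M and H69 arrays were fully apart for 7 of the 10 members, compared with 55.8% of all genes; H69M was the lower line for 6 of them (30.0% of all genes) and the higher line for 1 (25.8%). The members' median was -0.19 in log2 fold change.

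**Figure D1:**
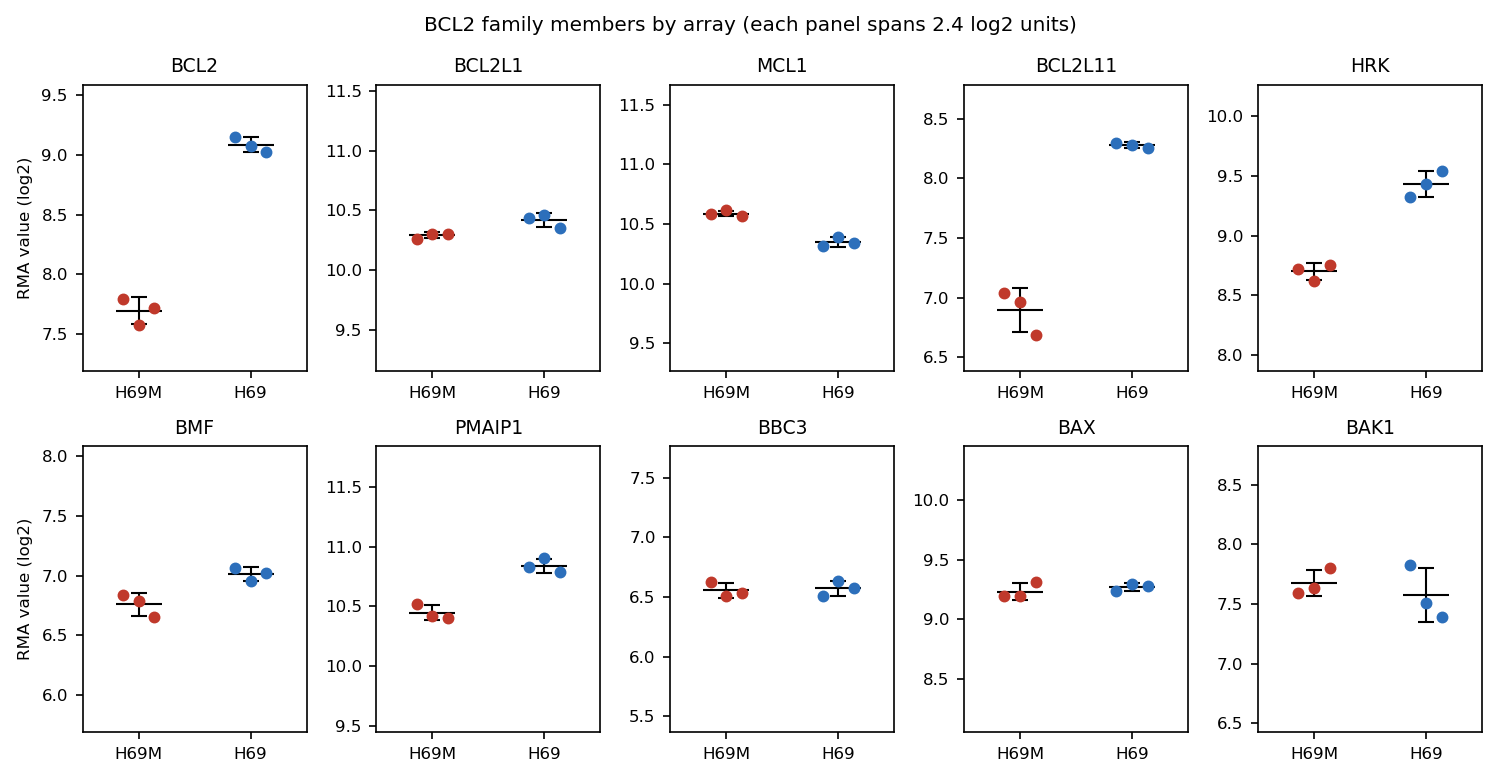
RMA values (log2) of the 10 members on each array, H69M in red at the left and H69 in blue at the right of each panel, with the mean and SD of 3 arrays in black; all panels span the same number of log2 units. BCL2 and BCL2L11 show the widest gaps between the lines, and the arrays of BBC3, BAX and BAK1 overlap.

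Among the pro-survival genes, BCL2 was measured at 7.79, 7.57 and 7.72 on the H69M arrays and at 9.15, 9.08 and 9.02 on the H69 arrays. Every H69M array was more than 1 log2 unit below every H69 array. The line means were 7.69 ± 0.11 in H69M and 9.09 ± 0.065 in H69 (SD, n = 3 each), a log2 fold change of -1.39 ± 0.075 (SE; limma, Benjamini-Hochberg adjusted p = 4.07e-06). H69M thus held 38.1% of the H69 level, a 2.62-fold difference. Without H69M replicate 1 the fold change was -1.44.

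BCL2L1 encodes BCL-XL, a pro-survival protein that HRK is known to bind. Its values were 10.26, 10.31 and 10.30 in H69M and 10.44, 10.46 and 10.35 in H69. All 3 H69M arrays were below the H69 arrays, but by little. The log2 fold change of -0.13 had a 95% interval of -0.26 to 0.0086 and missed the threshold (limma, Benjamini-Hochberg adjusted p = 0.118). It did pass when eBayes was run with an intensity trend (limma, adjusted p = 0.0463).

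MCL1, a short-lived pro-survival protein that NOXA targets, was the only member that rose. The H69M arrays read 10.58, 10.62 and 10.57, and the H69 arrays 10.32, 10.39 and 10.34. The H69M arrays lay above the H69 arrays without overlap. The log2 fold change was 0.24 ± 0.055 (SE; limma, Benjamini-Hochberg adjusted p = 0.00885), a level 1.18-fold higher in H69M. This call held under all 16 alternative analyses, with adjusted p between 0.00105 and 0.0402.

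BCL2L11 encodes BIM, a BH3-only protein that can bind every pro-survival member and that FOXO factors are known to induce. Its promoter is printed beside that of BCL2, since these 2 genes had the largest changes. Both are RefSeq sequences of assembly GRCh38.p14, from 250 bases before to 50 bases after the start site, at chr18:63319720-63320019 (minus strand) for BCL2 and chr2:111120664-111120963 (plus strand) for BCL2L11, with capitals marking the FOXO core.
BCL2: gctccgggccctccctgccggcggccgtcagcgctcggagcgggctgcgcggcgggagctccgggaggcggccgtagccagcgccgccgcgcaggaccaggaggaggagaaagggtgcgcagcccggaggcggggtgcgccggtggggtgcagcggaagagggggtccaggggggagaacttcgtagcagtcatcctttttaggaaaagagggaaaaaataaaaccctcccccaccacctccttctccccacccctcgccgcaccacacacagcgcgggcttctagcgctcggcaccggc
BCL2L11: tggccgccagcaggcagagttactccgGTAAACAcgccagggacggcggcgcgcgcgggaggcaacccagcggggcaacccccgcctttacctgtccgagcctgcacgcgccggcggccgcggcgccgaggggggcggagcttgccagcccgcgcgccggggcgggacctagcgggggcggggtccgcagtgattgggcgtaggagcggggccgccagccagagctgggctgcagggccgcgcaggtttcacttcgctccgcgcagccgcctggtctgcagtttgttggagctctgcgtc
Promoter windows were found for 9 of the 10 members, 11 windows in all; MCL1 had none. They were searched on both strands for the E-box CACGTG, a type that MYC binds, and for the FOXO core GTAAACA; no matches overlapped. The FOXO core was found in the BCL2L11 window, beginning 223 bases before the start site, and in no other member's window; it occurs in 3.42% of the 35116 promoter windows of all genes. The BCL2 window held neither motif. GC content was 70.7% for BCL2 and 74.7% for BCL2L11, against a median of 58.7% over all windows. Over the member windows it ran from 48% (BBC3) to 74.7%, with PMAIP1 at 71.3% and the uncalled BAX at 67.3%. A match is a description of the letters and not evidence of binding.

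The BIM gene BCL2L11 read 7.04, 6.96 and 6.69 on the H69M arrays, against 8.30, 8.28 and 8.25 on the H69 arrays. The H69M arrays were all lower and more scattered, with replicate 3 the lowest. Mean levels were 6.89 ± 0.18 in H69M and 8.28 ± 0.024 in H69 (SD, n = 3 each), a log2 fold change of -1.38 ± 0.093 (SE; limma, Benjamini-Hochberg adjusted p = 1.25e-05). H69M held 38.4% of the H69 level. The fold change was -1.28 without H69M replicate 3 and -1.45 without H69M replicate 1.

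HRK (harakiri) is a BH3-only gene best known from neurons. It stood at 8.72, 8.62 and 8.76 in H69M and at 9.32, 9.43 and 9.55 in H69. The lines did not overlap, and the change of -0.73 ± 0.075 (log2, SE; limma, Benjamini-Hochberg adjusted p = 0.000129) left H69M at 60.2% of the H69 level.

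PMAIP1 encodes NOXA, which binds MCL1 preferentially. The H69M values were 10.52, 10.42 and 10.40 and the H69 values 10.83, 10.90 and 10.79. Again the lines were apart, by a log2 fold change of -0.39 ± 0.063 (SE; limma, Benjamini-Hochberg adjusted p = 0.00148), or 76.3% of the H69 level.

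BMF encodes a BH3-only protein held at the actin motor complex through dynein light chain DYNLL2. It had 6.84, 6.79 and 6.65 in H69M, against 7.07, 6.95 and 7.02 in H69. The gap between the nearest arrays was narrow, and the fold change of -0.26 ± 0.069 (log2, SE) had a limma Benjamini-Hochberg adjusted p = 0.018. The call was lost without H69 replicate 1 (limma, adjusted p = 0.0688), H69 replicate 3 (0.0508) or H69M replicate 3 (0.0542).

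BBC3, the gene for the BH3-only protein PUMA, showed no shift beyond the spread of its arrays. Its arrays read 6.63, 6.51 and 6.53 in H69M and 6.51, 6.63 and 6.58 in H69, fully interleaved. The log2 fold change was -0.015 with a 95% interval of -0.16 to 0.13 (limma, Benjamini-Hochberg adjusted p = 0.873), and its sign turned under 4 alternatives, so no direction is given. BMF and BBC3 were also the dimmest members, with mean values under the median of all genes.

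The effectors BAX and BAK1 form the pores of the outer mitochondrial membrane. BAX values were 9.19, 9.19 and 9.32 in H69M and 9.24, 9.30 and 9.28 in H69. These ranges overlap, and the log2 fold change of -0.038 had a 95% interval of -0.18 to 0.10 (limma, Benjamini-Hochberg adjusted p = 0.648). BAK1 read 7.59, 7.63 and 7.80 in H69M and 7.82, 7.51 and 7.39 in H69. The H69 arrays of BAK1 were the most scattered of any member (SD 0.11 in H69M and 0.22 in H69, n = 3 each), and the log2 fold change of 0.10 had a wide 95% interval of -0.17 to 0.37 (limma, Benjamini-Hochberg adjusted p = 0.527). It was 0.22 without H69 replicate 1 (limma, adjusted p = 0.0942) and 0.0082 without H69 replicate 3 (0.963), and passed under none of the alternatives.

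The BAX promoter window is shown because it was the member window with the most motif matches: CACGTG, marked in capitals, occurs 4 times, at chr19:48954625-48954924 (RefSeq, GRCh38.p14, plus strand).
BAX: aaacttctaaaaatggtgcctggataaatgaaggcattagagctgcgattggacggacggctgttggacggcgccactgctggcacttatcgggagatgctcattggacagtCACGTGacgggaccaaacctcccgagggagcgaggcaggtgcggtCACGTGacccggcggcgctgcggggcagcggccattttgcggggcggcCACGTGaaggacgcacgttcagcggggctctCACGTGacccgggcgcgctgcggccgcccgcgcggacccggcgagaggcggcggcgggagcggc
The matches begin 138, 93, 45 and 14 bases before the start site. Of all promoter windows, 7.26% hold CACGTG at least once; among the members BBC3 held 1 further match, 232 bases before its start site.

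**Figure D2:**
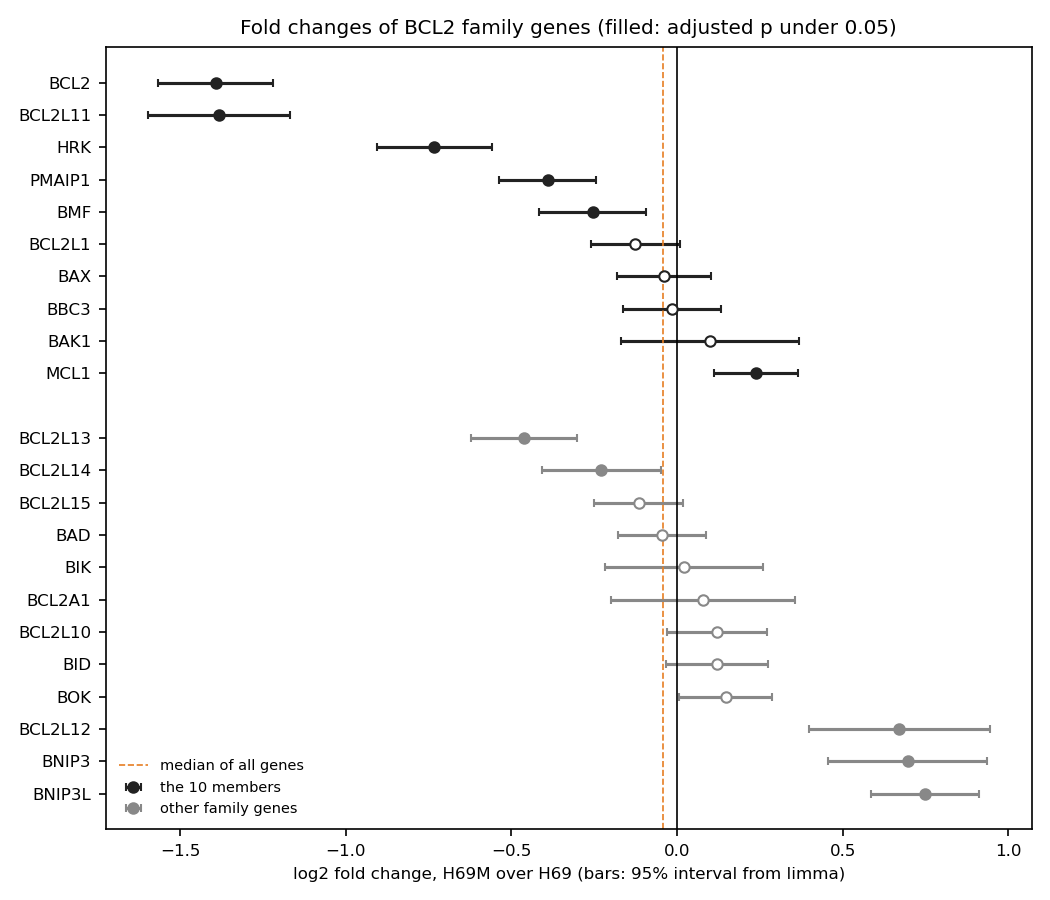
Log2 fold change of H69M over H69 for the 10 members (black) and 12 other BCL2 family genes (grey), with 95% intervals from limma; filled points passed the adjusted p threshold and the dashed line is the median of all genes. BCL2 and BCL2L11 stand apart at -1.39 and -1.38, and BNIP3L is the highest at 0.75.

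Differences between members within an array cancel any shift of the whole array and show whether 2 genes moved by unequal amounts. Their absolute size has no meaning, because probe sets differ in brightness, so only the shift between the lines is read. BCL2 minus BCL2L11 was 0.76, 0.61 and 1.03 on the H69M arrays and 0.85, 0.80 and 0.77 on the H69 arrays. The lines overlapped, and the difference between their means was -0.0093, with SDs of 0.21 in H69M and 0.042 in H69 (n = 3 each). Single arrays decide its sign and size: it was -0.12 without H69M replicate 3 and 0.085 without H69M replicate 2.

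The other pairs shifted. BCL2L1 minus BCL2 averaged 2.60 ± 0.13 in H69M and 1.33 ± 0.052 in H69 (SD, n = 3 each), a shift of 1.27 without overlap. The same difference for MCL1 minus BCL2 was 2.90 ± 0.13 in H69M and 1.27 ± 0.087 in H69 (SD, n = 3 each), a shift of 1.63. Relative to BCL2, both other pro-survival transcripts were therefore higher in H69M. This restates the separate log2 fold changes, which were -1.39 for BCL2, -0.13 for BCL2L1 and 0.24 for MCL1. Measured against BIM, BCL2L1 minus BCL2L11 averaged 3.40 ± 0.20 in H69M and 2.14 ± 0.043 in H69 (SD, n = 3 each). For MCL1 and NOXA, which binds it preferentially, MCL1 minus PMAIP1 was 0.14 ± 0.073 in H69M and -0.49 ± 0.036 in H69 (SD, n = 3 each), a shift of 0.63. Against PUMA, BCL2 minus BBC3 was 1.13 ± 0.066 in H69M and 2.51 ± 0.12 in H69 (SD, n = 3 each). These differences are given as values with no test.

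**Figure D3:**
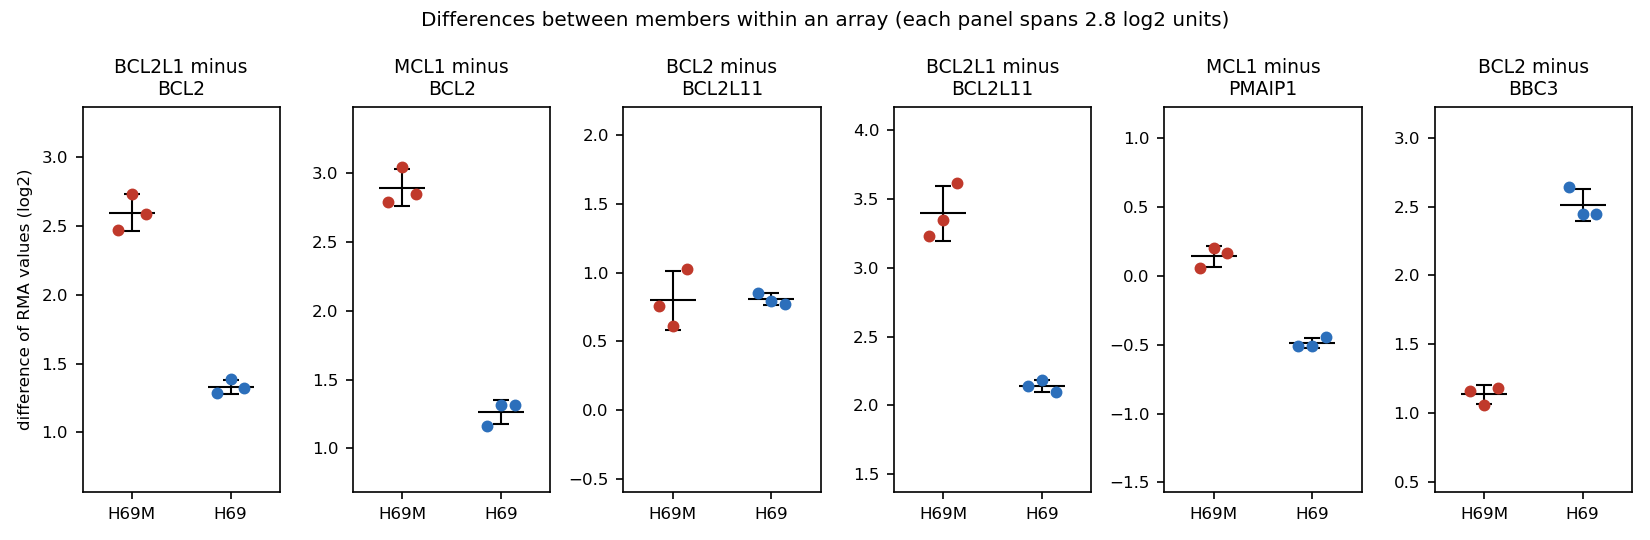
Differences between 2 members within each array (log2), H69M in red at the left and H69 in blue at the right, with the mean and SD of 3 arrays in black. BCL2 minus BCL2L11 overlaps between the lines, while BCL2L1 minus BCL2 and MCL1 minus BCL2 are higher on every H69M array.

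In the rest of the family, 3 of 12 measured genes rose and 2 fell, against 21.0% and 23.2% of all genes. The list's median log2 fold change was 0.099. The mitophagy receptor genes BNIP3L and BNIP3 rose by 0.75 ± 0.070 and 0.70 ± 0.10 (log2, SE), and BCL2L12 rose by 0.67 ± 0.12; for BNIP3L the levels were 11.36 ± 0.030 in H69M and 10.61 ± 0.11 in H69 (log2, SD, n = 3 each). Both BNIP genes are known hypoxia targets. BCL2L13, a mitochondrial outer membrane protein, had a log2 fold change of -0.46 ± 0.069 and BCL2L14 one of -0.23 ± 0.078 (SE). The BCL2L14 call (limma, Benjamini-Hochberg adjusted p = 0.0451) was lost under 9 of 14 alternatives, among them the omission of any H69 array, of H69M replicate 2 or of H69M replicate 3, with limma adjusted p between 0.0173 and 0.134 over all of them.

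The remaining family genes did not pass. These were the effector relative BOK (log2 fold change 0.15), the BH3-only genes BID (0.12), BAD (-0.044) and BIK (0.020), and BCL2A1 (0.077), BCL2L10 (0.12) and BCL2L15 (-0.12). BOK passed with array weights (limma, adjusted p = 0.0437). The pro-survival gene BCL2A1 was dim in both lines, at 4.78 in H69M and 4.70 in H69. BCL2L2 shares its only probe set with a read-through transcript and was not analysed here as a single gene.

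Transcription factors described upstream of the family were mixed: 4 of 15 measured genes rose and 2 fell, against 21.0% and 23.2% of all genes. The list's median log2 fold change was -0.068. BCL6, a transcriptional repressor, rose by 2.31 ± 0.094 and NFKB1, an NF-kB subunit, by 2.01 ± 0.12 (log2, SE). Both were dim in H69, where BCL6 averaged 4.99 and NFKB1 5.79, near the 25th percentile of gene levels (5.58). Their H69M means were 7.29 and 7.80. The MYC family moved in opposite directions. MYC averaged 8.48 ± 0.12 in H69M and 6.37 ± 0.061 in H69 (log2, SD, n = 3 each), whereas MYCN averaged 11.60 ± 0.19 in H69M and 12.53 ± 0.10 in H69. Their log2 fold changes were 2.11 for MYC and -0.93 for MYCN, the highest limma Benjamini-Hochberg adjusted p of the pair being 0.000183. TP73, a transcription factor that can induce PMAIP1 and BBC3, fell by 0.72 on the log2 scale. FOXO3, an inducer of BCL2L11, had a fold change of -0.25 with a 95% interval of -0.54 to 0.042 (limma, Benjamini-Hochberg adjusted p = 0.149) and passed only without H69M replicate 3 (-0.38, limma adjusted p = 0.0209); without H69M replicate 2 it was -0.12 (limma adjusted p = 0.407). The other FOXO genes of the list, named after their values were seen, leaned the other way: FOXO1 rose by 0.40 ± 0.082 (log2, SE; limma, Benjamini-Hochberg adjusted p = 0.00452), and FOXO4 had 0.18 (limma, Benjamini-Hochberg adjusted p = 0.0619). TP63 was not analysed here.

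Genes for turnover and binding partners of the family proteins had 5 of 18 higher and 2 lower, against 21.0% and 23.2% of all genes. The list's median log2 fold change was 0.035. The inositol trisphosphate receptors, calcium channels of the endoplasmic reticulum that BCL2 binds, were split. ITPR3 fell by 1.29 on the log2 scale, to 9.02 ± 0.14 in H69M, against 10.31 ± 0.042 in H69 (SD, n = 3 each), while ITPR2 rose by 1.09 ± 0.074 and ITPR1 by 0.47 ± 0.090 (SE). USP9X, a deubiquitinase that stabilises MCL1 protein, rose by 0.39 ± 0.062. The dynein light chain genes, whose products tether BIM and BMF, changed little: DYNLL1 had 0.16 (limma, Benjamini-Hochberg adjusted p = 0.0382) and DYNLL2 -0.16 (0.0705). The DYNLL1 call was lost under 7 of 16 alternatives, including the replicate block (limma, adjusted p = 0.0847), the omission of any single H69 array and the omission of H69M replicate 2 or 3; that of DYNLL2 was gained under 6, one being the omission of H69M replicate 1 (0.0331).

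Downstream of cytochrome c release, 5 of 10 measured genes rose and 2 fell, against 21.0% and 23.2% of all genes. The list's median log2 fold change was 0.085. CASP9, the initiator caspase of this pathway, rose by 1.28 ± 0.064 (log2, SE), with levels of 6.91 ± 0.072 in H69M and 5.64 ± 0.052 in H69 (SD, n = 3 each). APAF1, the scaffold on which caspase-9 is activated, rose by 0.91 ± 0.095. BIRC2, an inhibitor of apoptosis protein, rose by 1.06 ± 0.067, and cytochrome c itself, CYCS, fell by 0.53 on the log2 scale. The highest limma Benjamini-Hochberg adjusted p of these 4 genes was 0.000596, for CYCS. BIRC3 was not analysed here.

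**Figure D4:**
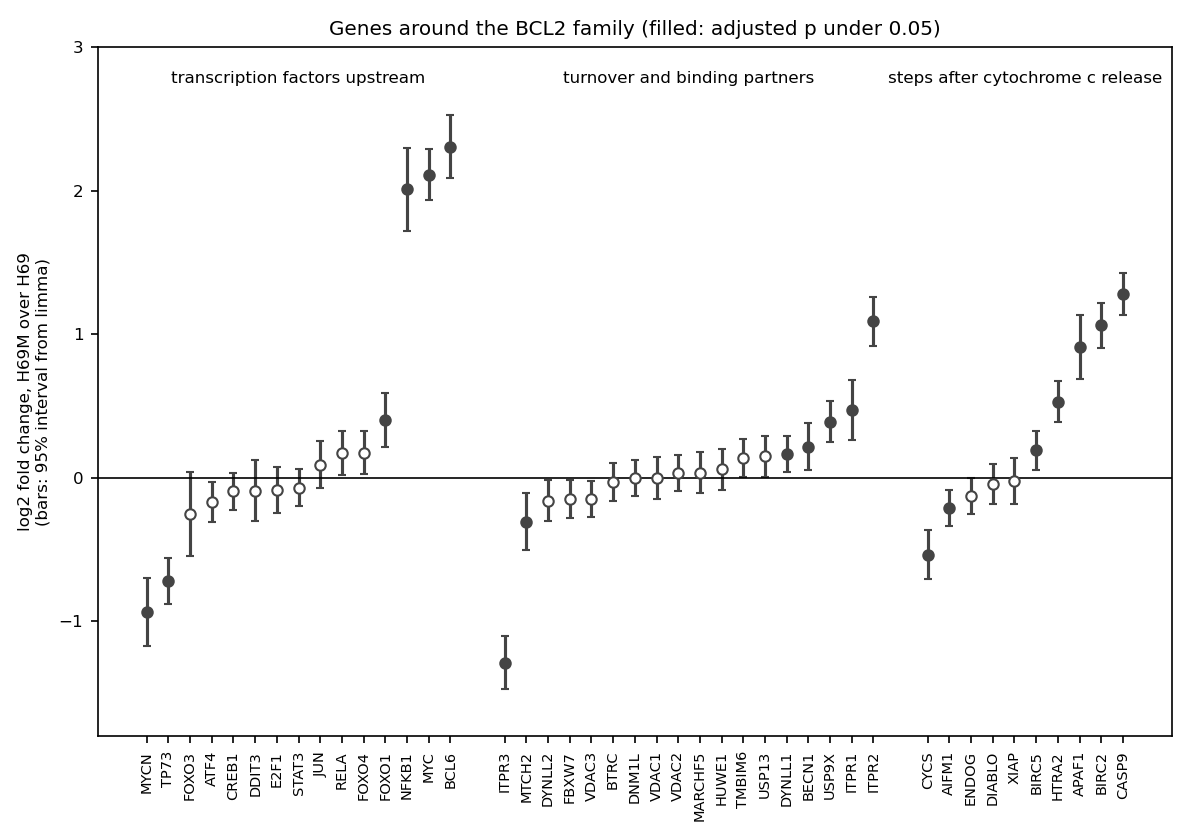
Log2 fold change of H69M over H69 with 95% intervals from limma for the transcription factors, the turnover and binding partners and the genes acting after cytochrome c release; filled points passed the adjusted p threshold. Each list holds rises and falls, from BCL6 at 2.31 to ITPR3 at -1.29.

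BCL2 and PMAIP1 both lie on chromosome 18, where PMAIP1 is the 9th measured gene before BCL2 in RefSeq order. Of the 20 measured genes around BCL2, 10 on each side, 7 were lower and 4 higher in H69M, and their median log2 fold change was -0.090. The nearest genes moved far less than BCL2: PHLPP1 had -0.28 and ZCCHC2 -0.063 on one side, and KDSR -0.24 and VPS4B -0.43 on the other, ZCCHC2 not passing. Named after their values were seen, CDH20 (-4.04) was lowered more than BCL2, and SERPINB5 (1.70) and SERPINB7 (3.96) were raised. TNFRSF11A (-1.49 ± 0.085, SE) fell by about as much as BCL2 (-1.39 ± 0.075). Around PMAIP1, 10 of 20 were lower and 4 higher, with a median of -0.16. The genes from CCBE1 to KDSR are counted in both stretches. BCL2 is itself a lower neighbour of PMAIP1, and PMAIP1 of BCL2, so the counts are not independent.

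On chromosome 2, 7 of the 20 genes around BCL2L11 were lower and 4 higher (median -0.11). Beside it stood ACOXL (-0.41) with ACOXL-AS1 (-0.12, not passed) on one side and MERTK (-0.46) with TMEM87B (0.30) on the other. The fall of BCL2L11 exceeded that of each of its 20 neighbours, the lowest of which was at -0.65. Around HRK on chromosome 12, 9 were lower and 5 higher (median -0.17). The stretches around BCL2L1, MCL1, BMF, BBC3, BAX and BAK1 had medians between -0.11 and 0.045. In that order, 1, 3, 5, 1, 2 and 7 of their 20 genes were lower, and 5, 4, 7, 5, 6 and 5 were higher. The uncalled BAK1 thus had as many lower neighbours as BCL2 and BCL2L11. No test was made of these counts, which are read against the 23.2% of all genes that were lower and the 21.0% that were higher.

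**Figure D5:**
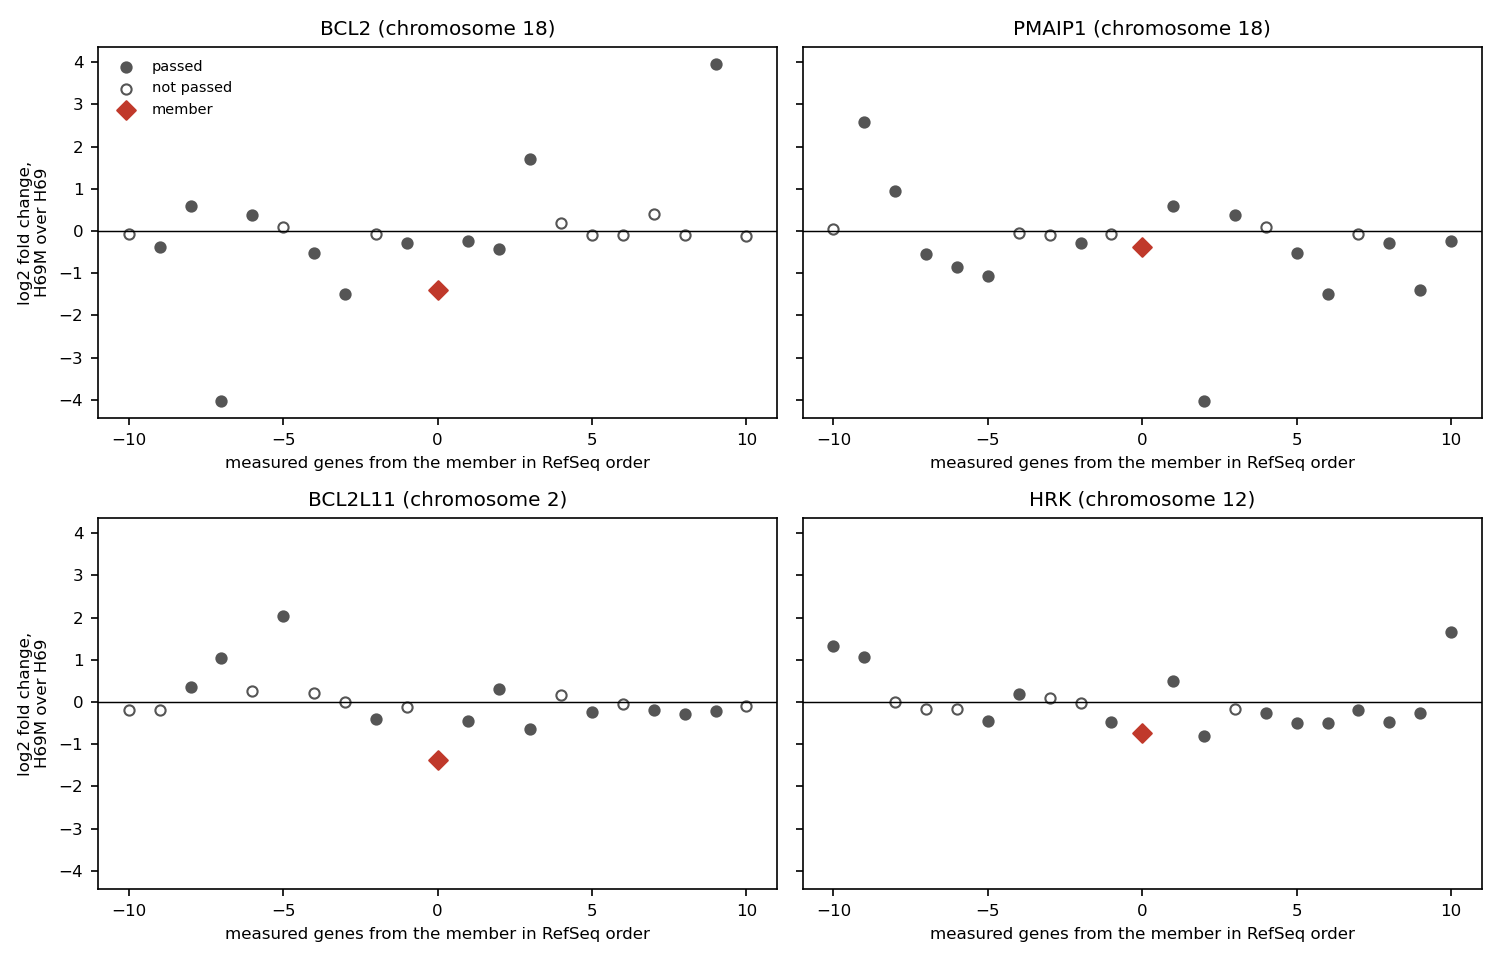
Log2 fold change of H69M over H69 for BCL2, PMAIP1, BCL2L11 and HRK (red diamonds) and the 10 measured genes on each side, in RefSeq gene order; filled circles passed the adjusted p threshold. BCL2L11 lies below all of its neighbours, whereas near BCL2 CDH20 fell further, TNFRSF11A fell by about as much and SERPINB7 rose.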

How the data were processed

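Total RNA of H69M and H69 was amplified, biotin-labelled with a sense-target system and run on Affymetrix arrays, per the labels' protocols. The authors deposited log2 values per probe set; per the submitters' processing notes RMA and limma were used, and no version, order or genome build is given in the sources used here. The table held 32321 probe sets, of which 19158 had 1 gene symbol in the platform annotation, covering 18404 genes; for genes with several probe sets the one with the highest mean was used.

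H69M was compared with H69 with limma 3.58.1 in R 4.3.3 (lmFit, eBayes without trend, two-sided) on the deposited log2 values, with Benjamini-Hochberg adjustment over all 18404 genes. The code was tested on simulated data. The members, lists and tests were chosen with earlier results of these data known. All members and other family genes are named; of each other list, up to 4 genes past the threshold with the largest change and 12 fixed genes, where measured. P-values measure the spread between arrays, which may be technical; 3 arrays a line limit the precision (median SE 0.075). Same-numbered arrays of the lines did not deviate together (r of deviations 0.0072 to 0.0209), so no pairing was used. There are 16 alternatives: a replicate block, array centring, repeated quantile normalization, level filters, other variance priors, array weights, other probe set rules and each array left out. Neighbours and promoters come from RefSeq, GRCh38.p14; protein sequences were not used here, and another promoter motif that was searched is not reported here. Python 3.11.15 made the tables and figures.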

Additional observations from a re-analysis of the deposited data

How the results depend on the processing

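Over the alternatives, 150 member fold changes kept their direction and their side of the threshold, and 8 did not: the BMF call was lost in 3, BCL2L1 was called in 1, and the sign of BBC3, never called, turned in 4 (-0.051 without H69M replicate 1 at its lowest, but 0.015 with centred arrays, 0.010 with repeated quantile normalization, 0.015 without H69 replicate 2, 0.0089 without H69M replicate 2). The replicate block, level filters, other variance priors and other probe set rules left each tested member's fold change as it was. Under these settings its direction could not turn, and only its call could. Members higher stayed at 1, and members lower ranged from 4 to 6. All 54 recomputed within-array differences moved by less than 1 SD, but only repeated quantile normalization could have moved them further. Array centring cancels within an array, and each member has 1 probe set to average. Leaving out 1 of 3 arrays cannot move a line mean by as much as the pooled SD of the 2 lines. With the replicate block, 1 member was higher and 5 were lower, as before, and 7638 genes passed in place of 8140; all members kept their call, and DYNLL1 lost its own. Every member rests on 1 probe set, and signal over background was not analysed here.

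Among other family genes the lower count of 2 became 1 with centred arrays, repeated quantile normalization, either level filter, eBayes trend or all probe sets fitted, and was 1 to 2 with an array left out. The partner list had 3 higher with all probe sets fitted and 3 to 4 with an array left out; its lower count was 4 with repeated quantile normalization or eBayes trend, 5 with either level filter or array weights, and 1 to 4 with an array left out. Lower genes after cytochrome c release were 1 to 2 with an array left out. Without genes below the median level, 483 genes were at least 2-fold higher and 323 lower, since fewer genes were tested. Signs of uncalled genes turned for BCL2A1 (-0.014 without H69 replicate 3, -0.026 without H69M replicate 3, up to 0.17 without H69 replicate 2) and BIK (-0.0064 with array weights, -0.026 without H69 replicate 2, -0.016 without H69M replicate 1, -0.050 without H69M replicate 3, up to 0.13 without H69M replicate 2). Both level filters left out BCL2L14 (mean level 5.27, against a 25th percentile of 5.58). The median filter also left out BMF (6.89, against a median of 7.16). Under these filters the 2 genes were thus not tested, rather than losing their calls. Otherwise the cause of the moves in these counts and signs was not tested.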
